A study of Homo sapiens with 18 samples.

Results

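The 10 genes described here are the 4 members of the FOS family (FOS, FOSB, FOSL1, FOSL2), the 3 members of the JUN family (JUN, JUNB, JUND) and 3 further immediate early genes (EGR1, IER2, NR4A1). They were chosen by name, with earlier results of these data known, and their transcript values were summed per gene. They are 10 of the 35579 genes in the files, and all 10 were among the 16786 genes with enough counts to be tested. FOS and JUN proteins pair through leucine zippers to form AP-1, a transcription factor that binds the TGANTCA element and controls genes of growth, migration, matrix breakdown and stress. FOS proteins need a JUN partner to bind DNA, whereas JUN proteins can also pair with themselves. Immediate early genes are switched on within minutes of a growth factor or stress signal, without new protein synthesis, through factors such as SRF with ETS partners and CREB, and most of their transcripts are short-lived.

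The cells were U2OS, a human osteosarcoma line, in 6 groups of 3 libraries of polyA RNA. The labels name 2 library kits without saying which libraries each made, so a kit difference between groups cannot be told apart from the group differences if the kits were split by group. One line carried mCherry alone. Another carried mCherry-EWS-FLI1, another mCherry-EWS-FLI1mut, and the last mCherry-EWS(YS37)-FLI1. The EWS-FLI1 protein joins the EWS low-complexity domain to the DNA-binding part of the ETS factor FLI1, and it drives Ewing sarcoma. These 4 lines were untreated, and the EWS-FLI1 line was also given 7.5 µM LY2835219 for 6 h or 24 h. This drug, abemaciclib, blocks CDK4 and CDK6, kinases that carry cells from G1 into S phase. All 6 groups carried the mCherry tag. The labels do not describe the change in either altered fusion, the promoter, whether a line was 1 clone or a pool, or a vehicle control, and the mCherry line was not treated, so the response to LY2835219 could be measured in EWS-FLI1 cells only. One of the labels' protocols gives other treatment times than the sample labels, which are used here.

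Libraries held 16261034 to 20270637 estimated counts. FLI1 stood at 0.342 ± 0.280 TPM (transcripts relative to all transcripts of the library, per length; SD, n = 3) in mCherry cells, 139 ± 12.7 in EWS-FLI1, 368 ± 14.5 in EWS-FLI1mut and 536 ± 10.2 in EWS(YS37)-FLI1 cells, so the lines differed in fusion RNA as well as in its form, and these cannot be told apart. EWSR1 means were ordered otherwise, at 221.86 TPM in mCherry, 1388.4 in EWS-FLI1, 1608.9 in EWS(YS37)-FLI1 and 2262.2 in EWS-FLI1mut cells. Which altered line held more fusion RNA was thus not settled. After 6 h of LY2835219, all FLI1 (mean 175.13) and EWSR1 (mean 1906.5) libraries were above all untreated EWS-FLI1 libraries. At 24 h both overlapped them (means 124.19 and 1362.4). The part of fusion RNA in the LY2835219 results was not tested. Of 9 osteoblast-lineage markers, 6 were at 1 TPM or more in every group, among them RUNX2, SPARC and COL1A1, while IBSP, BGLAP and COL1A2 were below that in the group means. The 4 blood markers summed to 0.451 to 3.19 TPM over the libraries, with CD3E at 0 in all of them and ITGAM highest in EWS(YS37)-FLI1 cells at 1.59 TPM. The 3 epithelial markers summed to 2.64 to 12.9 TPM, mostly EPCAM, and KRT19 was at 0 in all EWS(YS37)-FLI1 libraries. The 3 endothelial markers summed to 3.28 to 3.86 TPM in mCherry, 5.54 to 5.76 in EWS-FLI1, 2.76 to 5.31 in EWS-FLI1mut and 9.15 to 10.6 in EWS(YS37)-FLI1 cells, 7.33 to 10.6 at 6 h and 6.21 to 9.11 at 24 h. The part of these markers in the results was not tested. The share of counts from mitochondrial genes was 4.80% ± 0.277 in untreated EWS-FLI1 cells, 6.14% ± 0.146 at 6 h and 6.16% ± 0.380 at 24 h (SD, n = 3), and its part in the LY2835219 results was not tested. In these bulk libraries, fewer cells expressing a gene and less RNA per cell cannot be told apart.

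In the GENCODE 29 annotation of GRCh38, 4 of the genes lie on chromosome 19. On the plus strand are FOS (chr14:75278774-75282230), FOSB (chr19:45467995-45475179), FOSL2 (chr2:28392448-28417312), JUNB (chr19:12791496-12793315), EGR1 (chr5:138465490-138469315), IER2 (chr19:13150415-13154908) and NR4A1 (chr12:52022832-52059507). On the minus strand are FOSL1 (chr11:65892049-65900573), JUN (chr1:58780788-58784327) and JUND (chr19:18279760-18281622). Values are sums over all annotated transcripts of a gene, from 1 for JUN, JUNB and EGR1 up to 22 for NR4A1.

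In mCherry cells, the most abundant members on the TPM scale, which divides by transcript length, were FOSL2 at 91.3 ± 5.63, JUN at 68.5 ± 4.64, IER2 at 68.3 ± 8.79 and JUND at 57.8 ± 6.68 TPM. JUNB, EGR1, FOSL1 and NR4A1 followed at 48.2 ± 4.42, 44.7 ± 4.28, 28.98 ± 2.72 and 21.6 ± 1.29 TPM. FOS itself, the classic serum-response transcript, was low at 10.9 ± 0.556 TPM. FOSB was close to undetected at 0.690 ± 0.652 TPM, with 11 to 39 estimated counts per library over the whole series. In mCherry cells FOSL2 was thus the leading FOS-family transcript, while JUN, JUND and JUNB lay closer together.

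**Figure D1:**
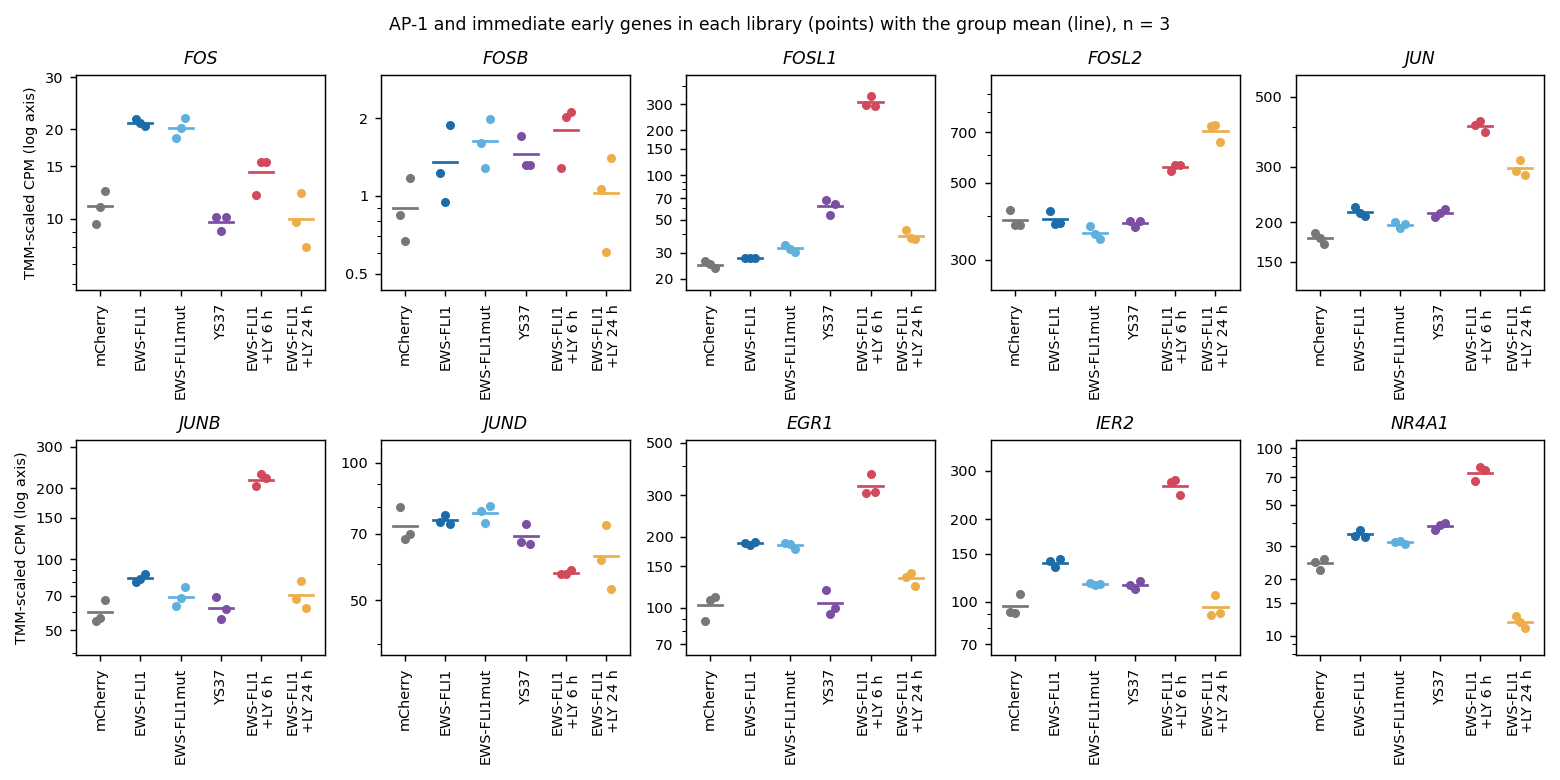
CPM after TMM scaling (log axis, a separate range for each gene) of the 10 genes in each of the 18 libraries. Points are libraries, lines are group means of 3, YS37 is EWS(YS37)-FLI1 and LY is LY2835219. FOSL1 stands at 293 to 340.1 CPM at 6 h against 23.5 to 67.8 in all other groups, and NR4A1 is highest at 6 h and lowest at 24 h.

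Differences between groups were measured as log2 fold changes of the counts with edgeR's quasi-likelihood test over all 16786 genes. Their standard errors were derived from that test, as the absolute log2 fold change divided by the square root of its F statistic. Log2 fold changes are given with these errors and Benjamini-Hochberg adjusted p-values, and a gene was called at an adjusted p under 0.05. Levels beside them are library-size-scaled counts (CPM) after TMM scaling, in the order of libraries 1, 2 and 3. The 3 comparisons with mCherry cells share the mCherry libraries, and the comparisons with untreated EWS-FLI1 cells share those libraries.

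EWS-FLI1 cells held more FOS and EGR1 than mCherry cells, with smaller gains of IER2, NR4A1, JUNB and JUN. Of the 10 genes, 6 were called higher and 0 lower, where 11.1% of all tested genes were called higher and 9.95% lower. FOSL1, FOSL2 and JUND, with log2 fold changes of 0.15 ± 0.09, 0.01 ± 0.06 and 0.04 ± 0.08, were not called, nor was FOSB at 0.58 ± 0.39.

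FOS, the founding AP-1 subunit, stood at 9.59, 10.97 and 12.4 CPM in mCherry cells and at 21.7, 21.0 and 20.6 CPM in EWS-FLI1 cells. Every EWS-FLI1 library was above every mCherry library, and the log2 fold change was 0.94 ± 0.14 (adjusted p = 2.4e-05). EGR1, a zinc finger factor that binds GC-rich promoters, stood at 88.2, 108 and 111 CPM in mCherry cells and at 188, 184.05 and 190.2 CPM in EWS-FLI1 cells. The groups were again apart, with a log2 fold change of 0.87 ± 0.09 (adjusted p = 1.9e-07).

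IER2, a short nuclear protein of the early growth response, was at 91.7, 91.3 and 106 CPM in mCherry cells against 140.3, 134 and 143 CPM in EWS-FLI1 cells (log2 fold change 0.53 ± 0.07, adjusted p = 8.2e-06). NR4A1, an orphan nuclear receptor, was at 24.8, 22.4 and 25.8 against 34.2, 36.4 and 33.6 CPM (0.51 ± 0.08, adjusted p = 7.2e-05). For both genes the lowest EWS-FLI1 library was above the highest mCherry library. JUNB, a JUN-family subunit that often weakens the activity of JUN, rose by 0.48 ± 0.10 (adjusted p = 9.2e-04) and JUN by 0.28 ± 0.05 (adjusted p = 4.9e-04) on the log2 scale, both also without overlap. Of the mCherry libraries, library 3 was the highest for FOS, FOSB, JUNB, EGR1, IER2 and NR4A1, and all 6 calls remained with any 1 library left out.

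FOS and EGR1 were also called higher in EWS-FLI1mut cells. FOS was at 18.7, 20.2 and 21.9 CPM and EGR1 at 189, 187 and 178 CPM, each above all 3 mCherry libraries, with log2 fold changes of 0.88 ± 0.14 (adjusted p = 2.4e-04) and 0.85 ± 0.09 (adjusted p = 1.9e-06). In all, 5 members were called higher and 0 lower, where 3.53% of all tested genes were called higher, 3.62% lower and 7.15% in either direction. The other 3 were NR4A1 at 0.37 ± 0.08 (adjusted p = 0.0070), FOSL1 at 0.36 ± 0.09 (adjusted p = 0.013) and IER2 at 0.26 ± 0.07 (adjusted p = 0.023).

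Those 3 smaller calls were lost under some alternatives. NR4A1 was no longer called without mCherry library 2 (0.31, adjusted p = 0.056), and FOSL1 was not called without EWS-FLI1mut library 1 (0.32, adjusted p = 0.072) or mCherry library 3 (0.32, adjusted p = 0.068). The FOSL1 call was also lost with transcript length offsets (0.34, adjusted p = 0.11) and with limma on log2(TPM + 1) (0.39, adjusted p = 0.051). IER2 lost its call without any of EWS-FLI1mut libraries 1, 2 and 3 or mCherry libraries 1 and 2, with adjusted p between 0.063 and 0.12, and with length offsets (adjusted p = 0.13). JUN and JUNB, called in EWS-FLI1 cells, were not called in EWS-FLI1mut cells (0.14 ± 0.05 and 0.22 ± 0.10).

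Tested directly, EWS-FLI1 and EWS-FLI1mut cells differed in IER2 only, with 1 member called higher in EWS-FLI1 cells and 0 lower, where 8.78% and 7.51% of all tested genes were called. IER2 was at 117, 115 and 116 CPM in EWS-FLI1mut cells, below all 3 EWS-FLI1 libraries (log2 fold change 0.26 ± 0.07, adjusted p = 0.0099), and this call was lost with transcript length offsets and on the log2(TPM + 1) scale. FOS and EGR1 differed between these lines by 0.06 ± 0.13 and 0.02 ± 0.09 on the log2 scale. JUN (0.14 ± 0.05) and JUNB (0.26 ± 0.10) did not pass this test either, so their call against mCherry in the EWS-FLI1 line alone was not shown to separate the 2 lines. Some alternatives did call more members, among them DESeq2. In edgeR, JUN was called without EWS-FLI1 library 3 (0.18, adjusted p = 0.0497) and JUNB without EWS-FLI1mut library 3 (0.34, adjusted p = 0.039).

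In EWS(YS37)-FLI1 cells FOSL1 was well above the mCherry level, NR4A1 was higher as in the other fusion lines, and FOS and EGR1 were not called. Of the 10 genes, 4 were called higher and 0 lower, where 11.5% of all tested genes were called higher and 10.2% lower. FOSL1, also called FRA1, a subunit without the transactivation domain of FOS, was at 26.2, 24.98 and 23.5 CPM in mCherry cells and at 67.8, 53.6 and 64.2 CPM in EWS(YS37)-FLI1 cells. Every library of the second group was above every library of the first, and the log2 fold change was 1.31 ± 0.09 (adjusted p = 1.2e-10). NR4A1 was at 36.4, 39.0 and 39.9 CPM, above all mCherry libraries (0.66 ± 0.08, adjusted p = 2.0e-06).

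JUN rose by 0.26 ± 0.05 (adjusted p = 7.2e-04), and IER2 by 0.26 ± 0.07 (adjusted p = 0.010). The IER2 call was lost without mCherry library 1 or 2 or EWS(YS37)-FLI1 library 3, at adjusted p from 0.051 to 0.060. It was also lost with length offsets (0.21, adjusted p = 0.19) and with limma on log2(TPM + 1) (0.16, adjusted p = 0.29). FOS, at 10.1, 9.06 and 10.1 CPM, and EGR1, at 119, 94.0 and 99.4 CPM, lay within or next to the mCherry range, with log2 fold changes of -0.17 ± 0.14 and 0.03 ± 0.09. In TPM, all EWS(YS37)-FLI1 libraries of FOS (9.09 to 10.2) were below all mCherry libraries (10.3 to 11.4), while those of EGR1 overlapped.

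Against EWS(YS37)-FLI1 cells, EWS-FLI1 cells held 2.16-fold as much FOS (log2 fold change 1.11 ± 0.14, adjusted p = 1.3e-06) and 1.80-fold as much EGR1 (0.85 ± 0.09, adjusted p = 8.8e-08). JUNB (0.42 ± 0.10, adjusted p = 0.0017) and IER2 (0.27 ± 0.07, adjusted p = 0.0042) were also higher in EWS-FLI1 cells. FOSL1 was lower in EWS-FLI1 cells (log2 fold change -1.17 ± 0.08, adjusted p = 3.6e-10). These were 4 members called higher and 1 lower, where 14.8% of all tested genes were called higher and 16.3% lower.

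EWS(YS37)-FLI1 and EWS-FLI1mut cells differed in 4 members. FOSL1 (0.95 ± 0.08, adjusted p = 1.2e-08) and NR4A1 (0.29 ± 0.08, adjusted p = 0.0075) were higher in EWS(YS37)-FLI1 cells, and FOS (-1.05 ± 0.14, adjusted p = 3.4e-06) and EGR1 (-0.83 ± 0.09, adjusted p = 1.8e-07) were lower. That is 2 members called higher and 2 lower, where 14.5% and 12.7% of all tested genes were called so, 27.2% in all. The NR4A1 difference turned to -0.03 on the log2(TPM + 1) scale and was then not called. Every EWS-FLI1 and EWS-FLI1mut library held more FOS and EGR1 than any mCherry or EWS(YS37)-FLI1 library, while FOSL1 was highest among untreated cells in EWS(YS37)-FLI1.

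**Figure D2:**
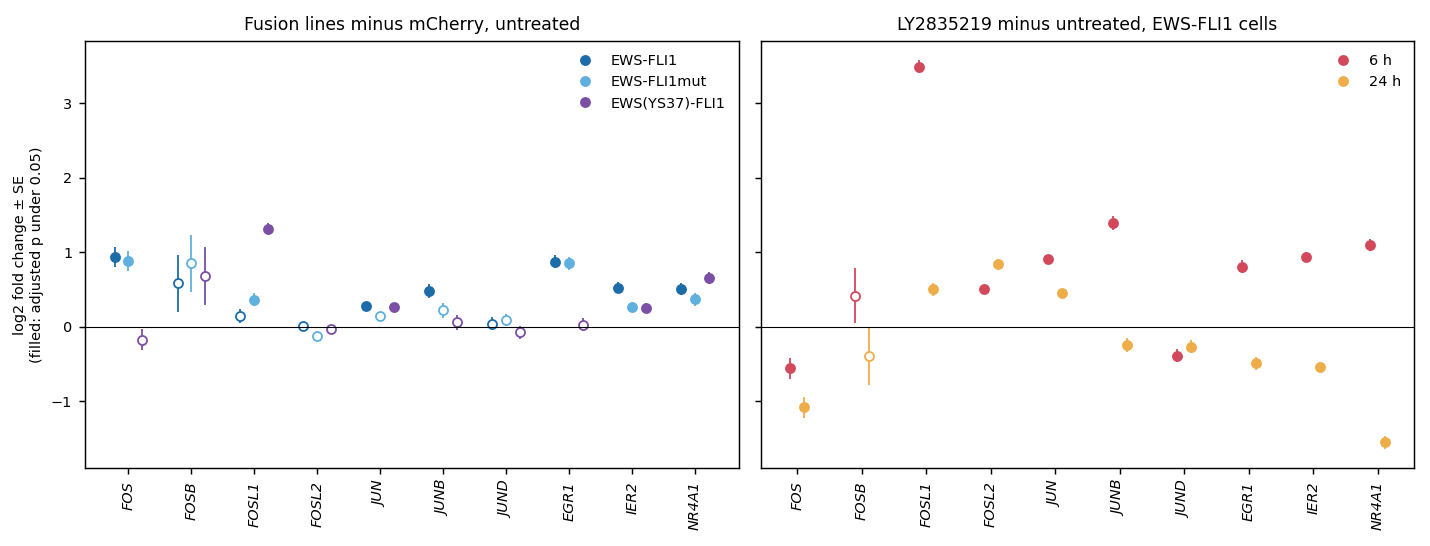
Log2 fold changes with standard errors for the 10 genes, with each untreated fusion line against mCherry cells on the left and LY2835219 at 6 h or 24 h against untreated EWS-FLI1 cells on the right. Filled points are called at an adjusted p under 0.05 and open points are not. FOS and EGR1 lie near 0.9 in EWS-FLI1 and EWS-FLI1mut but near 0 in EWS(YS37)-FLI1 cells, and FOSL1 reaches 3.49 at 6 h.

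The stretches of 120 bases before the start of FOS and EGR1, which moved together between lines, are shown with those of JUNB and FOSB, which share motifs with FOS. They come from RefSeq (GRCh38.p14, plus strand), at chr5:138465359-138465478 for EGR1, chr14:75278708-75278827 for FOS, chr19:12791366-12791485 for JUNB and chr19:45467876-45467995 for FOSB. Capitals mark CArG boxes (the SRF binding element), TATAAA, and TGACG or its reverse complement CGTCA (the core of the CREB and ATF element).
EGR1: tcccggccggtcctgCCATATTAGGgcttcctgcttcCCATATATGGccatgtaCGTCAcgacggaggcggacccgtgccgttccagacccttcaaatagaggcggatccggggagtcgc
FOS: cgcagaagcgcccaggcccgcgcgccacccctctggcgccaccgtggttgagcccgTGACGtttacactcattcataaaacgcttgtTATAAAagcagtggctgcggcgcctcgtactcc
JUNB: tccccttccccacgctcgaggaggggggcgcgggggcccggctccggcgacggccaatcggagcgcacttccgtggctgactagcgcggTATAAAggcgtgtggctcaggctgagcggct
FOSB: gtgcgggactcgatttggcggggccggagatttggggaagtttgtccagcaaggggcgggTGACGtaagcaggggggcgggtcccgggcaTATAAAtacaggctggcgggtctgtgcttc

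For FOS, 54 of these bases lie inside the gene as GENCODE 29 draws it, which begins before the RefSeq start. Motifs were searched on both strands in the 250 bases before the start of 35116 RefSeq promoters, which held 9 of the 10 members. FOSL1 was not in the table. EGR1 was the 1 member with a CArG box, at 105 and 83 bases before its start, where 1.16% of all promoters held one. TATAAA was found in FOS, FOSB and JUNB, at 33, 30 and 31 bases before the start, where 10.7% of promoters held it.

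TGACG was searched after the sequences had been seen, and it overlaps TGACGTCA. It was found in 8 of the 9 matched members, where 21.2% of promoters held it. Its position nearest the start was 64 bases before it in FOS, 60 in FOSB, 66 in FOSL2 and 66 in EGR1. In the other members with it, the nearest was farther away, at 86 in JUND, 123 in JUN, 137 in JUNB and 140 in IER2. Between 70 and 51 bases before the start, 4 of the 9 matched members and 2.54% of promoters held it. The full TGACGTCA element was in JUND alone among the members (1.65% of promoters), the ETS repeat GGAAGGAA, of the kind bound by EWS-FLI1, in NR4A1 alone (3.06%), and the AP-1 element TGANTCA in none (6.57%). A match is a description of letters in this window, and elements farther away were not searched.

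LY2835219 for 6 h moved 9 of the 10 genes in EWS-FLI1 cells. FOSL1 rose 11.2-fold, JUNB 2.62-fold, NR4A1 2.14-fold, IER2 1.91-fold, JUN 1.87-fold, EGR1 1.75-fold and FOSL2 1.42-fold, while FOS and JUND fell. These are 7 members called higher and 2 lower, where 31.6% of all tested genes were called higher and 33.3% lower. A call in either direction was common in this comparison, with 64.9% of all tested genes called.

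FOSL1 was at 27.7, 27.5 and 27.5 CPM in untreated EWS-FLI1 cells and at 295, 340.1 and 293 CPM after 6 h (log2 fold change 3.49 ± 0.09, adjusted p = 1.7e-19). No untreated library of any line came near the 6 h level. JUNB was at 79.8, 82.7 and 86.6 CPM untreated and at 204, 229 and 220.0 CPM at 6 h (1.39 ± 0.09, adjusted p = 6.4e-12). JUN was at 224, 215 and 209.8 CPM untreated and at 407, 419.8 and 387 CPM at 6 h (0.90 ± 0.05, adjusted p = 3.9e-13). For each of these 3 AP-1 subunits the lowest treated library was far above the highest untreated one.

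Among the immediate early genes outside AP-1, NR4A1 was at 34.2, 36.4 and 33.6 CPM untreated and at 66.5, 79.2 and 76.8 CPM at 6 h (1.10 ± 0.08, adjusted p = 1.4e-11). IER2 was at 273, 278 and 245 CPM at 6 h (0.93 ± 0.07, adjusted p = 2.6e-11). EGR1 was at 306, 367 and 308 CPM at 6 h (0.80 ± 0.09, adjusted p = 1.5e-08). All treated libraries of the 3 genes were above all untreated EWS-FLI1 libraries, and 6 h was their highest group of the 6.

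FOS went the other way, at 11.99, 15.5 and 15.5 CPM after 6 h against 20.6 to 21.7 CPM untreated (-0.56 ± 0.13, adjusted p = 8.6e-04). The groups did not overlap, and the FOS call was lost with transcript length offsets (-0.37, adjusted p = 0.061). JUND, the JUN-family member least tied to growth signals, was at 57.0, 57.0 and 58.1 CPM against 73.6 to 76.9 CPM untreated (-0.39 ± 0.09, adjusted p = 4.0e-04). FOSB, at 1.28 to 2.11 CPM after 6 h and 0.945 to 1.88 CPM untreated, overlapped between groups (0.42 ± 0.37, adjusted p = 0.33).

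The size of the 6 h changes depended on the scale. With no scaling factors, all tested genes had a median log2 fold change of -0.27, and the calls split into 3535 higher and 7450 lower instead of 5304 and 5586. On the log2(TPM + 1) scale tested with limma, where that median was -0.26, the changes were smaller at 3.02 for FOSL1, 1.00 for JUNB, 0.62 for IER2, 0.52 for JUN, 0.48 for NR4A1 and 0.42 for EGR1, and JUND stood at -0.75. FOSL2, at 0.50 ± 0.06 in counts (adjusted p = 3.4e-08), was at 0.05 on the TPM scale (adjusted p = 0.48), which is 0.31 above the median of all genes there. The other 8 members called at 6 h kept their direction and call on that scale.

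By 24 h most of these gains were gone and several members lay below the untreated level. NR4A1, FOS, IER2, EGR1, JUND and JUNB were called lower than in untreated EWS-FLI1 cells, and FOSL2, FOSL1 and JUN were called higher. These were 3 members called higher and 6 lower, where 23.3% of all tested genes were called higher and 24.6% lower, 48.0% in all.

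NR4A1 was the member furthest below the untreated level, at 12.8, 11.8 and 10.99 CPM after 24 h (-1.55 ± 0.09, adjusted p = 7.3e-13). The 24 h libraries were its lowest of all 18, also below the mCherry libraries at 22.4 to 25.8 CPM. FOS was at 9.76, 12.2 and 8.03 CPM (-1.08 ± 0.14, adjusted p = 5.9e-07), which overlaps the mCherry range of 9.59 to 12.4 CPM. EGR1 was at 135, 141 and 124 CPM (-0.49 ± 0.09, adjusted p = 5.0e-05), between the mCherry and the untreated EWS-FLI1 libraries.

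IER2 was at 89.5, 106 and 90.8 CPM (-0.54 ± 0.07, adjusted p = 7.3e-07), overlapping the mCherry range. JUND was at 61.2, 73.0 and 53.0 CPM (-0.26 ± 0.08, adjusted p = 0.013), a call that was lost without 24 h library 3 (-0.16, adjusted p = 0.12). JUNB was at 67.8, 81.2 and 61.8 CPM (-0.24 ± 0.10, adjusted p = 0.041), overlapping the untreated libraries. The JUNB call was lost under 6 of 14 alternatives, among them upper-quartile scaling (adjusted p = 0.080), length offsets (adjusted p = 0.061), and leaving out EWS-FLI1 library 2 or 3 (adjusted p = 0.052 and 0.082) or 24 h library 1 or 3 (adjusted p = 0.12 and 0.22).

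FOSL2, also called FRA2, was the member that rose further, at 415, 379.9 and 383 CPM untreated, 541, 563 and 564 CPM at 6 h and 729, 734 and 655 CPM at 24 h. The 3 groups were apart in that order in CPM, and the 24 h level was 0.85 ± 0.06 above untreated on the log2 scale (adjusted p = 1.3e-11). In TPM, FOSL2 at 6 h (86.4 to 90.7) overlapped untreated (81.6 to 92.3), and only the 24 h libraries (134.9 to 154.1) stood apart. FOSL1 was still higher at 42.5, 37.6 and 37.0 CPM (0.50 ± 0.09, adjusted p = 3.9e-05) and JUN at 291, 315 and 283 CPM (0.45 ± 0.05, adjusted p = 1.4e-07), each above all untreated libraries.

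Between 6 h and 24 h the difference itself was tested. FOSL2 was the 1 member called higher at 24 h (0.34 ± 0.06, adjusted p = 9.6e-06), and 7 were called lower, where 32.6% of all tested genes were called higher and 30.3% lower, 62.9% in all. FOSL1 was 7.92-fold lower (-2.99 ± 0.08, adjusted p = 2.6e-18), NR4A1 6.26-fold (-2.65 ± 0.09, adjusted p = 4.3e-17), JUNB 3.10-fold (-1.63 ± 0.10, adjusted p = 6.6e-13), IER2 2.78-fold (-1.47 ± 0.07, adjusted p = 1.9e-14) and EGR1 2.45-fold (-1.29 ± 0.09, adjusted p = 7.2e-12). FOS and JUN fell by 0.52 ± 0.14 (adjusted p = 0.0025) and 0.45 ± 0.05 (adjusted p = 6.8e-08) on the log2 scale. JUND (0.12 ± 0.09) and FOSB (-0.81 ± 0.38, adjusted p = 0.066) were not called.

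Without scaling factors, where the median of all genes was 0.31, the FOS difference between 6 h and 24 h was -0.27 (adjusted p = 0.098) and JUND was called higher at 0.38 (adjusted p = 4.4e-04). JUND was also called higher with upper-quartile factors (0.22, adjusted p = 0.025), with limma on log2(TPM + 1) (0.38, adjusted p = 0.0040) and without 24 h library 3 (0.23, adjusted p = 0.019). FOSB was called lower without 6 h library 1 (-1.01, adjusted p = 0.038) or 24 h library 3 (-1.10, adjusted p = 0.033).

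The makeup of the FOS family by TPM followed these changes. FOSL1 made up 21.96% ± 1.31 of FOS-family TPM in mCherry cells, 24.1% ± 1.95 in EWS-FLI1, 27.1% ± 1.23 in EWS-FLI1mut and 45.1% ± 3.85 in EWS(YS37)-FLI1 cells, then 73.3% ± 1.63 at 6 h and 22.3% ± 1.68 at 24 h (SD, n = 3). FOSL2 held most of the rest, 69.2% ± 1.26 in mCherry cells, 23.1% ± 0.840 at 6 h and 73.5% ± 1.07 at 24 h. FOS made up 14.6% ± 1.18 in untreated EWS-FLI1 cells and 3.35% ± 0.830 at 6 h. The family sum was 141 ± 7.86 TPM untreated, 385 ± 10.0 at 6 h and 197 ± 13.1 at 24 h.

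FOSL1 was thus below FOSL2 in untreated EWS-FLI1 cells, at a TPM ratio of 0.397 ± 0.0389, and above it at 6 h, at 3.17 ± 0.181. In EWS(YS37)-FLI1 cells the 2 transcripts were about level at 0.937 ± 0.144. The FOSL1 share at 6 h and untreated did not overlap (exact permutation test, two-sided p = 0.10, the smallest that 3 against 3 allows, adjusted p = 0.15 over 18 comparisons). Shares of estimated counts, which are not divided by length, gave FOSL1 6.23% untreated and 35.1% at 6 h, as the main FOSL2 transcript has 6713 bases against 1669 for FOSL1.

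Within the JUN family, JUN held 39.6% ± 1.26 of the TPM in untreated EWS-FLI1 cells, 41.2% ± 1.43 at 6 h and 51.8% ± 2.32 at 24 h. JUNB went from 32.1% ± 1.34 to 46.8% ± 1.4997 and then 25.8% ± 0.992, and JUND from 28.4% ± 0.574 to 12.1% ± 0.468 and then 22.4% ± 1.37. The JUNB to JUND ratio was 1.13 ± 0.0595 untreated, 3.87 ± 0.225 at 6 h and 1.15 ± 0.0338 at 24 h. JUN was 43.8% ± 1.46 of the family in EWS(YS37)-FLI1 and 39.3% ± 1.68 in mCherry cells (exact permutation p = 0.10, adjusted p = 0.15).

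**Figure D3:**
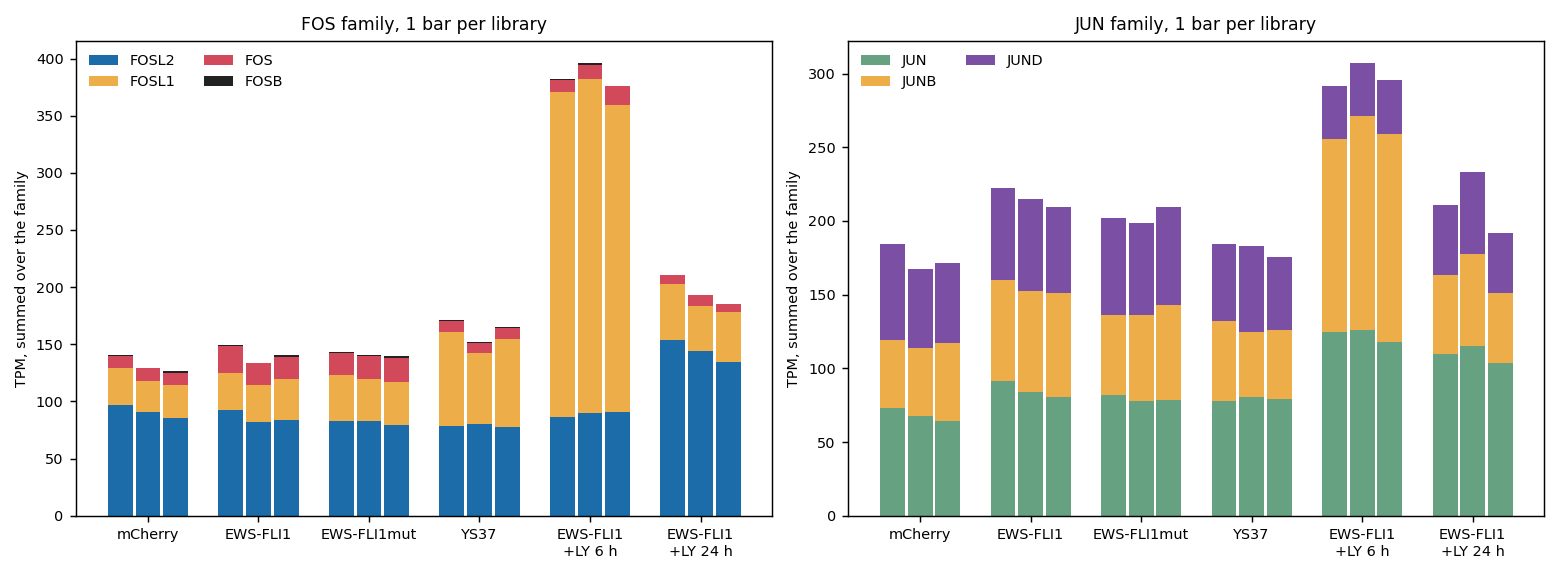
TPM of the FOS family (left) and JUN family (right) stacked by member, with 1 bar for each library and 3 libraries per group, YS37 being EWS(YS37)-FLI1 and LY being LY2835219. FOSL1 is the largest block of the FOS family in all 3 libraries at 6 h, and JUND is the smallest block of the JUN family in all 3 libraries at 6 h.

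The transcripts of a gene did not always move together. IER2 is drawn at chr19:13150415-13154908 (GENCODE 29, GRCh38), where IER2-201 has 2 exons and IER2-203 is 1 exon from 13151975 to 13154908 that holds 969 of the 2391 bases of the IER2-201 intron. IER2-201 was at 76.5, 75.9 and 79.1 TPM untreated and at 122, 135 and 117 TPM at 6 h. IER2-203 was at 9.49, 7.38 and 8.93 TPM untreated, at 3.16, 1.79 and 2.22 TPM at 6 h and at 5.05, 6.13 and 6.84 TPM at 24 h. IER2-201 was thus higher and the intron-holding IER2-203 lower in every 6 h library than in any untreated one. IER2-202, another spliced transcript of 2 exons, overlapped between these groups (28.44 ± 10.2 TPM at 6 h, 14.99 ± 5.745 untreated). IER2-203 holds the whole of exon 2 of IER2-201, so their levels are estimates that depend on how shared reads were divided.

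IER2-203 made up 8.52% ± 0.708 of IER2 TPM untreated, 1.53% ± 0.389 at 6 h and 9.09% ± 1.82 at 24 h. In the 3 other untreated lines its share was between 7.10% and 9.74%. The 7 retained-intron transcripts of NR4A1 made up 13.1% ± 5.47 of its TPM untreated, with libraries from 7.13% to 17.8%, and 8.38% ± 0.0456 at 6 h, so these groups overlapped.

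FOS-201, the main spliced FOS transcript, was at 11.9 to 12.1 TPM untreated, 4.33 to 6.64 at 6 h and 4.54 to 7.52 at 24 h, without overlap between untreated and treated libraries. Its share of FOS TPM was 59.0% ± 8.02, 41.3% ± 13.7 and 77.2% ± 7.62. At 6 h the shorter FOS-204 was at 5.62 ± 2.34 TPM against 5.34 ± 3.70 untreated, and the libraries of the 2 groups overlapped. FOSL1-201 held between 47.2% and 57.1% of FOSL1 TPM in the group means, and all 5 FOSL1 transcripts in the files had a higher mean at 6 h than untreated. JUN, JUNB and EGR1 each have 1 annotated transcript.

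**Figure D4:**
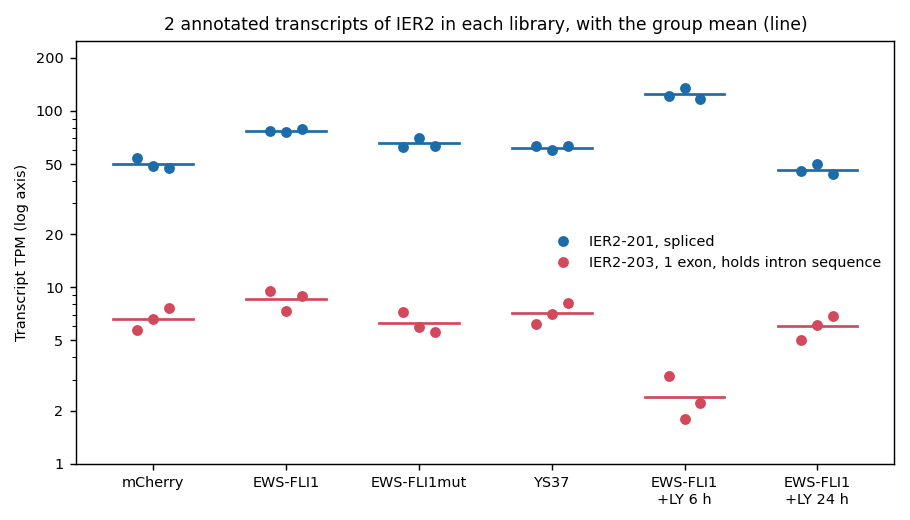
TPM (log axis) of 2 annotated transcripts of IER2 in each library, with lines at the group means of 3, YS37 being EWS(YS37)-FLI1 and LY being LY2835219. At 6 h IER2-201 stands at 117 to 135 TPM, its highest, while IER2-203 stands at 1.79 to 3.16 TPM, its lowest.

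Some members share sequence or position with other genes, and whether the libraries kept strand is not given in the sources used here. FOSB lies inside the span of ERCC1 and JUNB inside that of HOOK2, each on the opposite strand, and 12.8% of the 31-base words of JUNB are shared with HOOK2. HOOK2 moved opposite to JUNB at 6 h (-0.71 ± 0.10, adjusted p = 6.9e-07). Between lines HOOK2 moved the same way as JUNB, at 0.29 ± 0.09 in EWS-FLI1 against mCherry (adjusted p = 0.029) and 0.30 ± 0.09 in EWS-FLI1 against EWS(YS37)-FLI1 cells (adjusted p = 0.018). IER2 shares 43.3% of its words with the antisense gene AC011446.2, and FOSL1 shares 8.24% with its pseudogene FOSL1P1. For JUNB, IER2 and FOSL1, reads of the partner could have been counted with the member, and the size of this was not tested. FOSB-207, the most abundant FOSB transcript, shares 0 of its 710 words with another gene. The other FOSB transcripts were not searched, so the part of ERCC1 reads in them was not tested.

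The gene lists from here on were written with earlier results of these data known. Their counts beside the shares of all genes are therefore a description. A wider set of immediate early genes held 28 genes without the 10 members. In EWS-FLI1 against mCherry cells 16 of 26 tested were called higher and 1 lower, with a median log2 fold change of 0.34 against -0.02 for all genes. CTGF (1.03 ± 0.06) and CYR61 (0.66 ± 0.06), matricellular proteins induced by YAP and SRF, DUSP1 (0.69 ± 0.10), a phosphatase that shuts off MAP kinases, and EGR2 (1.16 ± 0.27) were among those that rose. For all tested genes the shares were 11.1% higher and 9.95% lower. In EWS-FLI1mut cells 7 were called higher and 0 lower (all genes 3.53% and 3.62%), with a median of 0.23. In EWS(YS37)-FLI1 cells 15 and 3 were called (all genes 11.5% and 10.2%), with a median of 0.36. EWS(YS37)-FLI1 cells had CYR61 at 1.42 ± 0.06 and PPP1R15A, which restores translation after stress, at 1.01 ± 0.07, with SGK1 at -1.28 ± 0.12.

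At 6 h of LY2835219, 16 of the 26 were called higher and 5 lower against untreated EWS-FLI1 cells, with a median of 0.67 against -0.02 for all genes, of which 31.6% were called higher and 33.3% lower. The largest rises were PPP1R15A (3.04 ± 0.07), GEM (2.89 ± 0.12), a small GTPase, KLF6 (1.96 ± 0.09) and ARC (1.65 ± 0.09). At 24 h, 6 were higher and 14 lower (all genes 23.3% and 24.6%), with a median of -0.24, CTGF at -2.66 ± 0.07 and CYR61 at -1.25 ± 0.06, while PPP1R15A (1.22 ± 0.07) and GEM (1.44 ± 0.12) were still higher. From 6 h to 24 h, 20 of the 26 were called lower and 1 higher (all genes 30.3% and 32.6%), with a median of -1.14.

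Of 21 genes reported as AP-1 targets, 20 were tested. In EWS-FLI1 against mCherry cells 8 were called higher and 0 lower (all genes 11.1% and 9.95%), with a median of 0.31, led by the matrix metalloproteinase MMP9 (2.27 ± 0.24) and the chemokine CXCL8 (1.93 ± 0.33). EWS-FLI1mut cells had 3 higher and 2 lower (all genes 3.53% and 3.62%), a median of 0.11, and the growth factor EREG stood at 1.63 ± 0.25. EWS(YS37)-FLI1 cells had 12 higher and 2 lower (all genes 11.5% and 10.2%) and a median of 0.41, with MMP9 at 1.56 ± 0.25 and the adhesion receptor CD44 at 0.86 ± 0.08, but the collagenase MMP13 at -1.57 ± 0.22.

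At 6 h, 15 of these targets were called higher and 1 lower, with a median of 0.97 against -0.02 for all genes, of which 31.6% were called higher and 33.3% lower. MMP3 rose by 4.28 ± 0.33, SPHK1, which makes sphingosine-1-phosphate, by 3.01 ± 0.08, the cytokine LIF by 2.69 ± 0.06 and the haem-degrading HMOX1 by 2.57 ± 0.13 on the log2 scale. At 24 h, 10 were higher and 5 lower (all genes 23.3% and 24.6%), with a median of 0.18, MMP3 still at 4.96 ± 0.32 but CXCL8 at -2.34 ± 0.34 and PLAU, the urokinase that activates plasmin, at -1.26 ± 0.10.

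**Figure D5:**
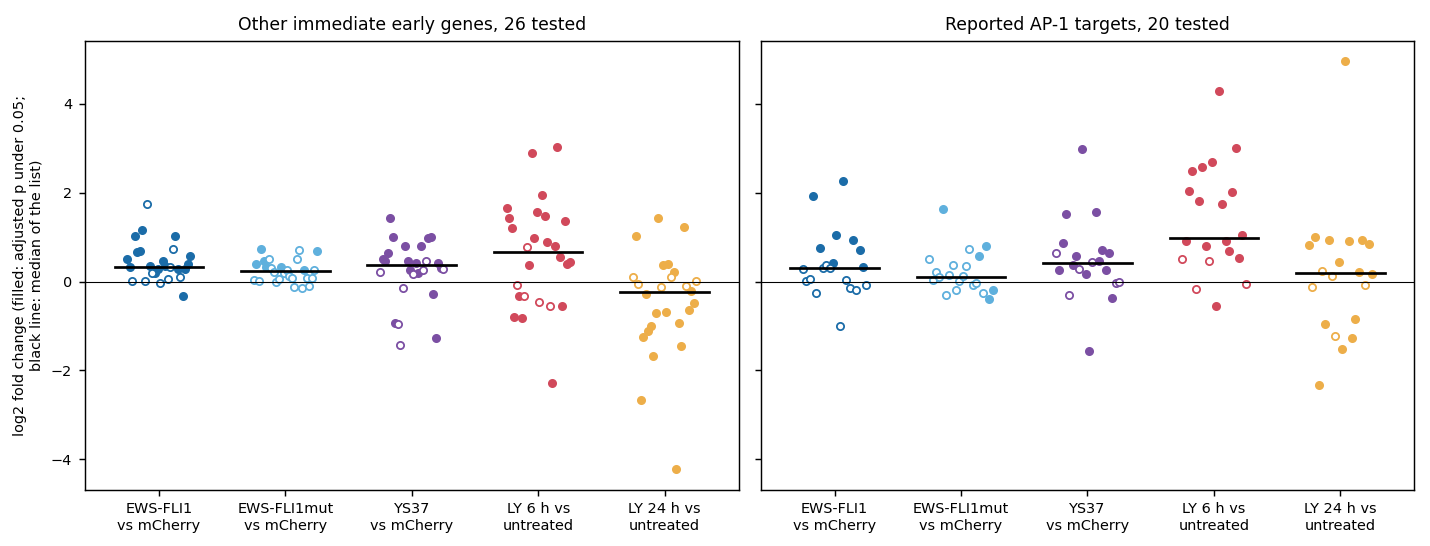
Log2 fold changes of the 26 tested genes of the wider immediate early set (left) and the 20 tested reported AP-1 targets (right) in 5 comparisons, YS37 being EWS(YS37)-FLI1 and LY being LY2835219. Filled points are called at an adjusted p under 0.05, open points are not, and black lines are medians, which reach 0.67 and 0.97 at 6 h.

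Partners that AP-1 subunits can bind, of the ATF and MAF families, had 12 of 13 genes tested. At 6 h 6 were called higher and 3 lower (all genes 31.6% and 33.3%), with a median of 0.22. Those higher included MAFG (1.76 ± 0.07), MAFF (1.54 ± 0.09), ATF4 (1.07 ± 0.05) and ATF3 (0.46 ± 0.14). In EWS(YS37)-FLI1 against mCherry cells 5 were higher and 1 lower (all genes 11.5% and 10.2%; median 0.23), with MAFF at 1.23 ± 0.10, ATF3 at 0.80 ± 0.14 and MAF at -0.69 ± 0.10. EWS-FLI1 cells had 4 higher and 1 lower (all genes 11.1% and 9.95%; median 0.0059), with MAFF at 0.61 ± 0.10. MAFF was back below untreated at 24 h (-1.09 ± 0.10), where the set had 3 higher and 4 lower (all genes 23.3% and 24.6%; median -0.15).

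Genes of the signal route to the immediate early promoters held 19 names. Of 17 tested, 6 were called higher and 5 lower at 6 h, near the shares of all genes (31.6% and 33.3%) and with a median of 0.0026. The promoter factors SRF (1.36 ± 0.06) and ELK3 (1.08 ± 0.06) were higher and the receptor EGFR (-1.84 ± 0.11) and the kinase RPS6KA1 (-0.98 ± 0.09) lower. At 24 h 1 was higher and 8 lower (all genes 23.3% and 24.6%; median -0.14). SRF was also higher in EWS-FLI1 (0.28 ± 0.06) and EWS(YS37)-FLI1 (0.42 ± 0.06) than in mCherry cells, where 5 and 0, and 5 and 1, of the set were called higher and lower (all genes 11.1% and 9.95%, and 11.5% and 10.2%). Of 6 proteins that bind AU-rich elements and control the life of early transcripts, 3 were called higher and 2 lower at 6 h (all genes 31.6% and 33.3%; median 0.18), with ZFP36L1 at 2.59 ± 0.06, ZFP36L2 at -1.40 ± 0.09 and HNRNPD at -1.29 ± 0.06.

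The genes whose levels followed FOS, FOSL1 and JUN most closely were ranked by the root mean square (RMS) difference in log2 CPM, each gene centred on its mean, over the 18 libraries and 11436 candidates. For FOSL1, whose own RMS deviation was 1.24, they were TNFAIP3 (0.327), ITPRIP (0.342) and NFKBIE (0.347). TNFAIP3 had group means of 12.6 CPM untreated, 94.5 at 6 h and 15.4 at 24 h in EWS-FLI1 cells and 22.3 in EWS(YS37)-FLI1 cells. For FOS, with an own deviation of 0.480, they were COL9A2 (0.244), IGF2 (0.258) and ATP9A (0.264), and for JUN, with 0.406, ARFGAP1 (0.0729), AL135905.2 (0.0805) and BMP1 (0.0850). These values describe the likeness of levels over libraries that share groups.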

How the data were processed

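The authors' deposited tables give, per transcript and library, kallisto 0.46 estimated counts and TPM, per the submitters' processing notes, with hg38 named as the build. The annotation behind the transcripts is not given in the sources used here. Transcript IDs were matched to GENCODE 29 (169797 of 188753, with 2.59% to 2.74% of counts unmatched per library), and the deposited estimated counts were added up over each gene's transcripts, then rounded. Some deposited transcript lengths differ from GENCODE 29, with 2104 against 2158 bases for FOS-201, 2110 against 2085 for IER2-201 and 1830 against 1820 for JUNB-201. Exon positions and shared 31-base words are those of GENCODE 29 and may differ from the sequences that were quantified. The 18 libraries, numbered within their group by the labels, were fitted together in edgeR 4.0.16 (R 4.3.3) with TMM factors, edgeR's filter on low counts and the quasi-likelihood test, and p-values were adjusted over 16786 genes. The fit was also run on counts simulated from its own estimates, with few genes changed in a single group. That run cannot check the scaling where most genes are called, as at 6 h. TPM, the authors' deposited per-length values, served for levels between genes and for shares. Alternatives were upper-quartile and no scaling, no filter, length offsets, 2-group fits, DESeq2 1.42.0, limma 3.58.1 on log2(TPM + 1), a replicate block and leaving out each library. The labels call libraries biological replicates without saying what was separate, so p-values measure the spread between these libraries. Replicate libraries differed by more than counting noise in every pair (chi-square per degree of freedom 3.86 to 10.4). All 10 members are named in every comparison, and of each list up to 4 called genes of at least 5 CPM with the largest change. The members and lists were chosen with earlier results of these data known.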

Additional observations from a re-analysis of the deposited data

Results flagged for a closer look

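The effect of LY2835219 on EWS-FLI1 cells differed between 24 h and 6 h, tested as the difference of the 2 time points in edgeR, for 8 of the 10 genes, where 62.9% of all tested genes were called. On the log2 scale the 24 h effect minus the 6 h effect was -2.99 for FOSL1, -2.65 for NR4A1, -1.63 for JUNB, -1.47 for IER2, -1.29 for EGR1, -0.52 for FOS, -0.45 for JUN and 0.34 for FOSL2. NR4A1, IER2, EGR1 and JUNB crossed the untreated level, being called higher at 6 h and lower at 24 h, although the JUNB call at 24 h was lost under 6 of 14 alternatives. The FOS difference was not called without scaling factors (-0.27, adjusted p = 0.098). FOSL2 was the 1 member called higher at the later time, and JUND, at 0.12, was not called, although it was called higher with upper-quartile factors (0.22), without scaling factors (0.38), with limma on log2(TPM + 1) (0.38) and without 24 h library 3 (0.23). FOS was below untreated at both.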

How the results depend on the processing

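Of 51 called member values, 40 stayed called under every alternative, 11 were lost under at least 1, and 1 of these turned direction, NR4A1 in EWS(YS37)-FLI1 against EWS-FLI1mut cells. Counts over all genes moved most in the comparisons of lines. EWS-FLI1mut against mCherry cells gave 1200 called genes, but 684, 684 and 766 without EWS-FLI1mut library 1, 2 or 3, 667 and 739 without mCherry library 2 or 3, 360 with length offsets and 384 with limma. For EWS-FLI1 and EWS(YS37)-FLI1 against mCherry cells, 3536 and 3645 calls became 1701 and 1961 with length offsets and 1679 and 1907 with limma. EWS-FLI1 against EWS-FLI1mut, EWS-FLI1 against EWS(YS37)-FLI1 and EWS(YS37)-FLI1 against EWS-FLI1mut went from 2734, 5223 and 4565 calls to 1262, 3000 and 2570 with length offsets and 1276, 2990 and 2735 with limma. Calls split differently into higher and lower without scaling: 742 and 416 instead of 592 and 608 for EWS-FLI1mut against mCherry, 1602 and 2138 instead of 1937 and 1708 for EWS(YS37)-FLI1 against mCherry, 1118 and 1729 instead of 1474 and 1260 for EWS-FLI1 against EWS-FLI1mut, 1702 and 2797 instead of 2434 and 2131 for EWS(YS37)-FLI1 against EWS-FLI1mut, and 7665 and 3228 instead of 5465 and 5089 for 24 h against 6 h. With limma they split into 297 and 87, 781 and 1126, 537 and 739, 807 and 1928, and 6255 and 2619 in the same 5 comparisons, into 1851 and 1139 instead of 2491 and 2732 for EWS-FLI1 against EWS(YS37)-FLI1, 2480 and 6974 at 6 h, and 2271 and 3728 instead of 3919 and 4132 at 24 h. The cause of these shifts was not tested.

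Of the member counts, 5 in EWS-FLI1mut against mCherry cells ranged from 3 to 4 with 1 library left out. The 1 in EWS-FLI1 against EWS-FLI1mut cells became 2 without scaling, without the filter and in the 2-group fit, 4 with DESeq2 and 0 with length offsets and limma, and ranged from 1 to 2 with 1 library left out. Shares from estimated counts, which weigh long transcripts more, put FOSL1 at 5.83% in mCherry, 6.23% in EWS-FLI1, 7.78% in EWS-FLI1mut and 13.5% in EWS(YS37)-FLI1 cells, 35.1% at 6 h and 5.17% at 24 h. They put JUN at 57.4%, 57.8%, 57.2%, 62.0%, 59.5% and 69.2% in the same order.

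Of the values that turned direction, 1 was called in the main edgeR fit, NR4A1 in EWS(YS37)-FLI1 against EWS-FLI1mut cells (0.29 ± 0.08, adjusted p = 0.0075). The others were not called there, among them NR4A1 in EWS-FLI1 against EWS(YS37)-FLI1 cells at -0.15 ± 0.08. FOSL2 in EWS-FLI1 against mCherry was -0.013 with upper-quartile scaling, -0.011 without scaling, -0.091 with length offsets and -0.089 with limma. EGR1 in EWS(YS37)-FLI1 against mCherry was -0.010 without scaling and -0.025 with limma, and in EWS-FLI1 against EWS-FLI1mut -0.0050 with upper-quartile scaling, -0.022 without scaling and -0.012 with limma. NR4A1 in EWS-FLI1 against EWS(YS37)-FLI1 was 0.053 with length offsets and 0.12 with limma. For EWS(YS37)-FLI1 against EWS-FLI1mut, limma gave -0.052 for FOSL2, -0.0027 for JUN and -0.030 for NR4A1. With 1 library left out, these ranged across 0: FOSL2 in EWS-FLI1 against mCherry from -0.035 to 0.059; FOSL2 from -0.052 to 0.025, JUNB from -0.019 to 0.16, JUND from -0.13 to 0.0012 and EGR1 from -0.077 to 0.094 in EWS(YS37)-FLI1 against mCherry; EGR1 in EWS-FLI1 against EWS-FLI1mut from -0.0042 to 0.056; FOSB from -0.39 to 0.11, FOSL2 from -0.0076 to 0.071 and JUN from -0.012 to 0.051 in EWS-FLI1 against EWS(YS37)-FLI1; FOSB from -0.31 to 0.0014 and IER2 from -0.031 to 0.019 in EWS(YS37)-FLI1 against EWS-FLI1mut; JUND at 24 h against 6 h from -0.017 to 0.23.

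Libraries with the same replicate number showed little shared deviation over all tested genes (correlations from -0.04 to 0.06). These correlations weigh noisy low genes like all others, so they cannot exclude that the numbers pair libraries. With the replicate block, calls over all genes were 3579 for EWS-FLI1 and 1271 for EWS-FLI1mut against mCherry, 10883 at 6 h and 8064 at 24 h, and FOSB was called lower at 24 h than at 6 h (-0.86, adjusted p = 0.039), the 1 member call that the block changed. FOSB, at 11 to 39 counts per library, is the member that depth limits most.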
